A study of Mus musculus with 6 samples.

Results

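Skida1 and 7 genes around it on mouse chromosome 2 were examined in RNA-seq of the anterior cingulate cortex, a midline frontal area of the brain. The 8 genes, of 55401 in the deposited gene count table, were Skida1, Mllt10, Dnajc1, Commd3, Bmi1, Pip4k2a, Nebl and Gm13344. Skida1 and Gm13344 were chosen by their count and FPKM values in this same contrast, and the other 6 for lying close to Skida1, so what follows for Skida1 and Gm13344 is a description and not independent evidence of a difference. To take neighbours without regard to their values, all 53 genes that GENCODE M21 places at 17 to 20 Mb of chromosome 2 in GRCm38 were also read. The study compared adult mice labelled as Ythdf1 knockout (KO, 3 libraries) with adult mice labelled as wild type (WT, 3 libraries), by sequencing bulk polyadenylated RNA. YTHDF1 is a cytoplasmic reader of the RNA mark N6-methyladenosine that promotes translation of marked transcripts. The labels do not give the allele, a strain, an age beyond adult or any treatment, and they do not say that each library came from a separate animal, so the spread between libraries may be technical.

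SKIDA1 carries a SKI/DACH domain, a fold it shares with the transcriptional co-repressors SKI and SKIL and with the DACH proteins, and its own function is little described. The genes next to it have varied roles. MLLT10 (AF10) is a cofactor of the histone H3 lysine methyltransferase DOT1L and a fusion partner in leukaemia, and BMI1 is a RING-finger subunit of Polycomb repressive complex 1, which ubiquitinates histone H2A and holds developmental genes silent. DNAJC1 is a J-domain co-chaperone of the endoplasmic reticulum, COMMD3 belongs to a family that works with CCDC22 and CCDC93 in endosomal sorting, PIP4K2A is a kinase that phosphorylates phosphatidylinositol 5-phosphate, and NEBL (nebulette) is an actin-binding protein of the nebulin family. Gm13344 is a noncoding antisense gene of unknown function.

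Libraries held 61792250 to 69848835 counts in the KO group and 65804611 to 66740463 in the WT group. In every library genes with a value of 4 were 2.16 to 2.54 times as frequent as genes with a value of 3 or 5 on average, and 8 and 12 stood out in the same way, so 1 read pair appears to be worth about 4 counts. Ythdf1 itself stood at 59.2 ± 2.59 CPM (counts set against TMM-scaled library size) in libraries labelled KO, against 52.7 ± 3.43 CPM in those labelled WT (SD, n = 3 each). The gene's total was thus no lower under the KO label and is no check of it, so KO and WT stand below for the labels only. Ythdf1 lies on the same chromosome as Skida1, with its start 162.9 Mb away. No marker of the cortical excitatory or inhibitory neurons, astrocytes, oligodendrocytes and their precursors, microglia or endothelial cells examined was at 0 in any library.

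GENCODE M21 annotates 5 Skida1 transcripts on the minus strand between 18040676 and 18049051 of chromosome 2 (ENSMUSG00000054074), and they matter here because the authors' table lists only one of them. That transcript, Skida1-202 (ENSMUST00000091420, 18044083 to 18049051), is 4376 bases long with 2 exons and 2727 coding bases. Skida1-201 is 2936 bases long and lies wholly within the exons of Skida1-202. It differs inside the coding part by leaving out 261 bases, or 87 codons with no remainder, at chr2:18047409-18047669. Skida1-203 (835 bases) and Skida1-204 (393 bases) are short coding fragments from the start of the gene, with 87.9% and 77.9% of their bases in Skida1-202. Skida1-205 (420 bases, noncoding) shares 12.9% of its bases with Skida1-202 and extends past its end. The stretch that tells Skida1-202 from Skida1-201 is shown with 15 coding bases on each side, 5′ to 3′ on the gene's strand. Capitals mark the 261 bases in Skida1-202, and in Skida1-201 the pair of bases that meet where they are missing.
Skida1-202: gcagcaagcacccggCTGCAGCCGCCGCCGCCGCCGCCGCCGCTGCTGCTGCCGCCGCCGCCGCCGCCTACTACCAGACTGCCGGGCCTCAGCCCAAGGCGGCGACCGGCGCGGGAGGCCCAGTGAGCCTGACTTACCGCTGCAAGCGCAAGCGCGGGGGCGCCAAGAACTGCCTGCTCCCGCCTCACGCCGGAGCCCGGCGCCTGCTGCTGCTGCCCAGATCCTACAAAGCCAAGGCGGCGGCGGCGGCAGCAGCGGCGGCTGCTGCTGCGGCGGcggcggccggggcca
Skida1-201: gcagcaagcacccgGCggcggccggggcca
The 261 bases are 77.0% G and C, against 48.3% over the whole of Skida1-202. As annotated they begin with ct and end with gg, not with the gt and ag that usually bound an intron.

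**Figure D1:**
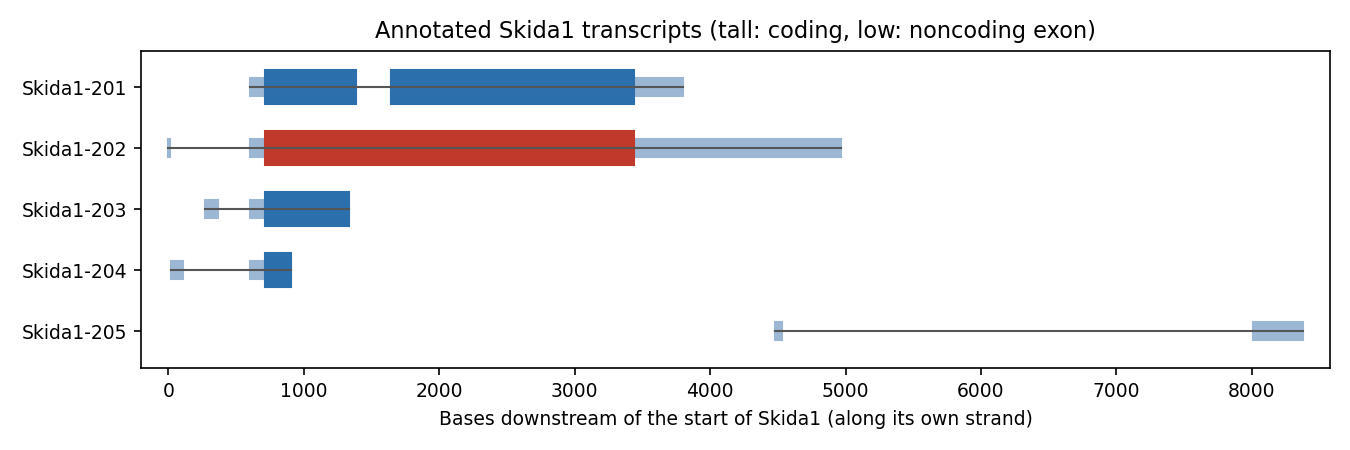
Exons of the 5 annotated Skida1 transcripts, drawn to scale in bases from the start of the gene along its own strand (tall boxes coding, low boxes noncoding, lines introns). Skida1-202, in red, spans all exon bases of Skida1-201 and most of those of Skida1-203 and Skida1-204, while Skida1-205 lies almost wholly beyond its end.

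Skida1 was present at a low level in every library labelled WT and at under 1 CPM in every library labelled KO. It had 13, 61 and 53 counts in KO replicates 1, 2 and 3, against 461, 516 and 427 counts in WT replicates 1, 2 and 3. At 4 counts a pair, the KO libraries held about 3.2, 15.2 and 13.2 read pairs. On the CPM scale it stood at 0.185, 0.994 and 0.841 in KO replicates 1, 2 and 3 and at 6.93, 7.90 and 6.42 in WT replicates 1, 2 and 3. The groups did not overlap, and the lowest WT library was 6.45-fold above the highest KO library. KO replicate 1 stood apart from the other KO libraries, which were up to 5.39-fold higher, whereas the WT libraries differed among themselves by at most 1.23-fold. The means were 0.673 ± 0.430 CPM in the libraries labelled KO and 7.08 ± 0.754 CPM in those labelled WT (SD, n = 3 each), a log2 fold change of -3.41 with a standard error (SE) of 0.449.

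Of 15596 tested genes that averaged 1 CPM or more, 2 were at a log2 fold change of -3 or lower, Skida1 and the retrogene Gm10260, named here after its value was seen. Skida1 ranked first of all 20587 tested genes by unadjusted p, a rank that its choice from this contrast makes likely and that supports nothing. Its adjusted p from edgeR's quasi-likelihood test was 0.609, so it did not pass the threshold of 0.05 over all genes. Over the alternatives the adjusted p ran from 3.06e-15 with DESeq2 to 0.999 without WT replicate 1, and without KO replicate 1 it was 0.00293 in edgeR, with a log2 fold change of -2.95. With counts divided by 4, an alternative added after seeing the data, edgeR gave an adjusted p of 0.0565.

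The deposited transcript table gives a finer view of the same reads. In the authors' deposited table Skida1-202 was listed at 0 FPKM (fragments set against the length of the transcript and the depth of the library) in all 3 libraries labelled KO and at 1.48, 1.62 and 1.36 FPKM in WT replicates 1, 2 and 3. FPKM could be turned into counts through the 6 or 7 listed genes per library that have a single annotated transcript and at least 20 counts. There 1 FPKM over 1000 bases was worth a median of 66.5 to 74.3 counts, and the genes of a library lay close together, from 71.1 to 73.8 counts in WT replicate 3, where they spread most. On that scale Skida1-202 came to 462, 494 and 425 counts in WT replicates 1, 2 and 3, which is 100%, 95.8% and 99.5% of the gene's counts there. In KO replicates 1, 2 and 3 it came to 0, so on this scale none of the gene's 13, 61 and 53 counts lay on Skida1-202. The authors list no value for any other Skida1 transcript, so where those counts lay is not shown. Outside Skida1-202 the WT libraries were left with about -0.8, 21.9 and 2.2 counts in replicates 1, 2 and 3. The counts not on Skida1-202 were thus higher in KO replicates 2 and 3 than in any WT library, while KO replicate 1 lay below WT replicate 2. How reads were divided among overlapping transcripts is not given in the sources used here, and its part in the split was not tested.

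**Figure D2:**
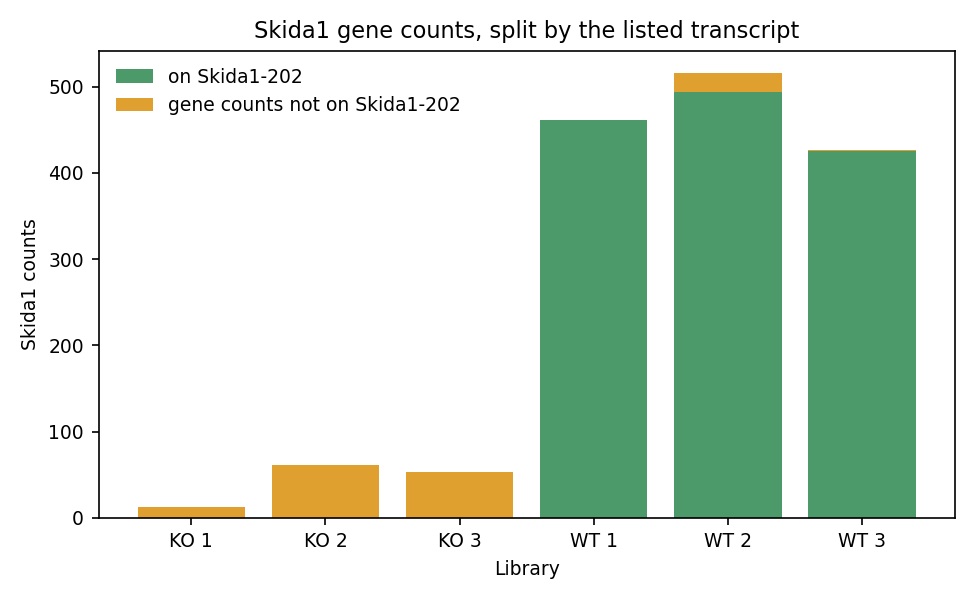
Skida1 gene counts in each library (vertical axis, counts), divided into those that the deposited FPKM of Skida1-202 accounts for and the rest. The 3 KO libraries hold 13 to 61 counts with none on Skida1-202, and the 3 WT libraries hold 427 to 516 counts, of which at least 95.8% are on it.

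Many listed transcripts were at 0 in one group. Among those at 0 in KO, few genes had totals as low in KO against WT as Skida1. Of 537 transcripts in the authors' deposited table, 92 were at 0 FPKM in all 3 libraries labelled KO and 90 in all 3 labelled WT. The 92 include 79 tested genes with more than 1 annotated transcript, whose gene totals had a median log2 fold change of -0.07. Only 9 of those 79 gene totals were below -1 and 4 below -2, and Skida1 was the third lowest. Its place among them supports nothing, since it was chosen on this contrast. Gene totals behind the 90 transcripts at 0 in WT were not examined.

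Gm13344 (ENSMUSG00000087103, chromosome 2, 19429104 to 19431983, minus strand, 1557 bases, 1 transcript) was the other gene of the neighbourhood in the authors' table. It had 0 counts in each of the 3 libraries labelled KO, against 13, 33 and 66 counts in WT replicates 1, 2 and 3, or 0.195, 0.505 and 0.992 CPM. The 112 WT counts come to about 28 read pairs. The WT group was 9.16-fold above a floor of 3 read pairs (12 counts, for counting error only) over the KO group. That value describes the counts and is no lower bound on a difference, since Gm13344 was chosen on these same values. The floor also leaves out the spread between libraries. Gm13344 passed the filter on low counts only through the WT libraries, where it was high. Its exons overlap those of Gm33940 on the opposite strand, which was at 0.866, 1.09 and 0 CPM in KO replicates 1, 2 and 3 and at 0.646, 0.612 and 0.271 CPM in WT replicates 1, 2 and 3. The pair together came to 0.866, 1.09 and 0 CPM in KO replicates 1, 2 and 3 and to 0.841, 1.12 and 1.26 CPM in WT replicates 1, 2 and 3. These sums overlapped between the groups. The libraries mark strand, but the strand setting of the count is not given in the sources used here, so reads of the pair may not be told apart.

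**Figure D3:**
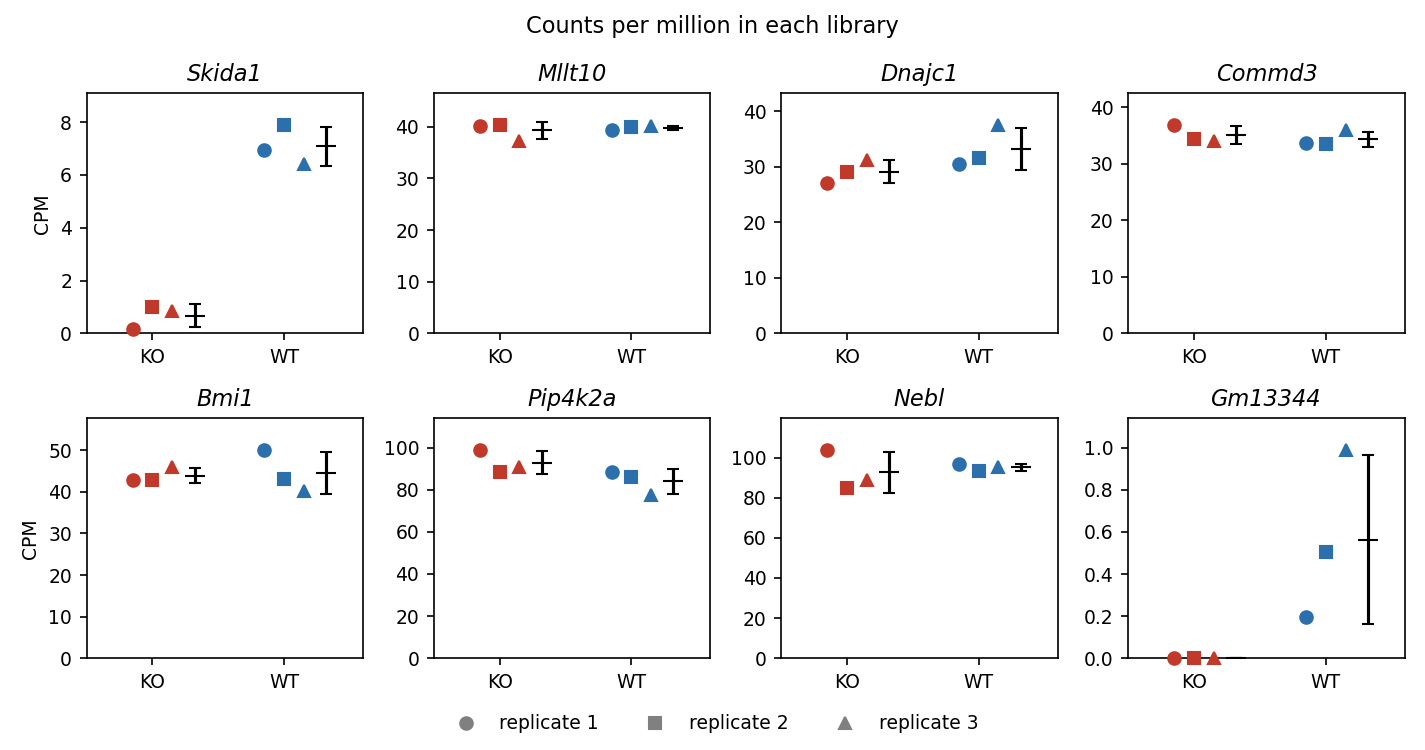
CPM of the 8 genes in each library, KO left and WT right in each panel, with the mean and SD (n = 3) beside the points; each vertical axis starts at 0 and has its own range. Skida1 sits at 0.185 to 0.994 CPM in KO and 6.42 to 7.90 CPM in WT, Gm13344 at 0 in all KO libraries, and the groups of the other 6 genes overlap except in Pip4k2a, where they nearly touch.

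The chromatin genes beside Skida1 were level between the groups. Mllt10 (ENSMUSG00000026743, 18055237 to 18212388, plus strand) starts 6.2 kb from the start of Skida1 and is read away from it. It stood at 40.2, 40.4 and 37.3 CPM in KO replicates 1, 2 and 3, against 39.4, 39.9 and 40.2 CPM in the same order in WT. Its log2 fold change was -0.02, with a 95% interval of -0.16 to 0.12 (edgeR adjusted p = 0.991). That interval, from the spread between these libraries, did not come near the log2 fold change of Skida1. Bmi1 (ENSMUSG00000026739, 18677018 to 18686629) stood at 42.8, 42.9 and 46.0 CPM in KO replicates 1, 2 and 3 and at 50.2, 43.1 and 40.3 CPM in WT replicates 1, 2 and 3. The WT libraries thus spread around the KO ones, and the log2 fold change was -0.02 with an interval of -0.21 to 0.17 (edgeR adjusted p = 0.995). Transcripts of Gm5946 and AC114652.1 match Bmi1 (95% identity or above, for 150 bases or longer), so some of its reads could be shared.

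Commd3 (ENSMUSG00000051154, 18672384 to 18676231) ends 786 bases before Bmi1 on the same strand. It was at 35.1 ± 1.56 CPM in the libraries labelled KO and 34.4 ± 1.31 CPM in those labelled WT (SD, n = 3 each), a log2 fold change of 0.03 (95% interval -0.12 to 0.18, edgeR adjusted p = 0.985). Nebl (ENSMUSG00000053702, 17343909 to 17731464) was at 104, 84.8 and 89.0 CPM in KO replicates 1, 2 and 3 and at 97.0, 93.1 and 95.1 CPM in WT replicates 1, 2 and 3. Its KO libraries lay on both sides of the WT ones (log2 fold change -0.04, 95% interval -0.21 to 0.13, edgeR adjusted p = 0.985).

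Dnajc1 and Pip4k2a had log2 fold changes of opposite sign that did not pass the test. Dnajc1 (ENSMUSG00000026740, 18195654 to 18392830) was at 27.1, 29.1 and 31.2 CPM in KO replicates 1, 2 and 3 and at 30.5, 31.7 and 37.6 CPM in WT replicates 1, 2 and 3. The groups overlapped, and the log2 fold change was -0.19 (95% interval -0.41 to 0.02, edgeR adjusted p = 0.938). Without WT replicate 3 the log2 fold change was -0.099. Its last exons overlap those of Mllt10 on the opposite strand, and the pair together came to 67.2, 69.5 and 68.5 CPM in KO replicates 1, 2 and 3, against 69.9, 71.7 and 77.8 CPM in the WT ones. These sums did not overlap between the groups, the KO ones being lower, as in 5.16% of all tested genes. They nearly touched, with a highest KO sum of 69.5 CPM and a lowest WT sum of 69.9 CPM. Pip4k2a (ENSMUSG00000026737, 18842255 to 18998126) was at 99.1, 88.5 and 91.0 CPM in KO replicates 1, 2 and 3 and at 88.5, 85.9 and 77.5 CPM in WT replicates 1, 2 and 3. The KO libraries were above the WT ones by a hair, with a lowest KO value of 88.5 CPM and a highest WT value of 88.47 CPM, and the log2 fold change was 0.15 (95% interval -0.01 to 0.30, edgeR adjusted p = 0.93). Leaving out WT replicate 3 gave 0.089, and leaving out KO replicate 1 gave 0.097. The 5 oligodendrocyte markers summed to 6050, 4560 and 3960 CPM in KO replicates 1, 2 and 3 and to 3520, 4240 and 3630 CPM in WT replicates 1, 2 and 3, all 5 with a higher mean in KO. KO replicate 1 was highest in both, while in WT Pip4k2a was highest in replicate 1, where the marker sum was lowest. The part of oligodendrocyte content in the Pip4k2a values was not tested. In bulk tissue fewer cells of a type and less RNA per cell cannot be told apart.

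Per kilobase of all annotated exons of a gene, Skida1 was the lowest of the 7 protein-coding genes in both groups. It stood at 0.137 CPM per kilobase in the libraries labelled KO and 1.44 in those labelled WT, while Dnajc1 was next at 2.50 and 2.86. Nebl (6.08 in KO and 6.24 in WT) and Mllt10 (6.65 and 6.74) were close to each other, followed by Bmi1 (11.0 and 11.2), Commd3 (15.1 and 14.7) and Pip4k2a (26.7 and 24.1). The order of the 7 was the same in both groups.

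Among all 53 genes at 17 to 20 Mb, 37 had a count in at least 1 library and 22 passed the filter on low counts, 14 of them protein-coding. The 3 protein-coding genes that did not pass were H2al2a, 4921504E06Rik and Ptf1a, a pancreatic and cerebellar transcription factor, each with at most 4 counts in a library. Of the 22, edgeR called 0 at an adjusted p under 0.05, as of all tested genes (0%), with 2 genes at an unadjusted p under 0.05, Skida1 and Gm13344, while 5.26% of all tested genes were under it. Both were lower in KO, a direction taken by 2.64% of all tested genes at that p, and 0 were higher, against 2.62%. Nothing is read from this count, since both were chosen on this contrast. Of 37 genes of the window that DESeq2 was run on, it called the same 2, Skida1 and Gm13344, from which nothing is read for the same reason. Over the whole table DESeq2 was run on 32535 genes and called 32 of the 24949 with an adjusted p, or 0.128%. Leaving out Skida1, 11 of the 21 had higher and 10 lower values in KO (median log2 fold change 0.01), against 10256 higher and 10331 lower of all tested genes. The groups did not overlap in 2 of these 21 genes, while 11% of all tested genes did not overlap. They were Gm13344, with all KO libraries below all WT libraries as in 5.16% of tested genes, and Pip4k2a, with all KO libraries above as in 5.84%. Gm13344 was chosen on this contrast, so its place among these genes and among the lower ones supports nothing. Of the genes not so chosen, only Pip4k2a did not overlap.

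A930004D18Rik, a protein-coding gene on the same strand that starts 11.3 kb downstream of the start of Skida1, is the nearest tested gene on that side. It stood at 4.32, 3.94 and 3.71 CPM in KO replicates 1, 2 and 3 and at 3.88, 4.50 and 4.04 CPM in WT replicates 1, 2 and 3. These groups overlapped (log2 fold change -0.05, 95% interval -0.40 to 0.29, edgeR adjusted p = 0.991). Its level was thus near that of Skida1 in the WT libraries. Its interval, from the spread between these libraries, did not reach the log2 fold change of Skida1. The noncoding 1810059C17Rik, which lies across the start of Mllt10, had 8 counts in KO replicate 1 and 0 in the other 5 libraries.

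Farther out, Etl4, Otud1 (a deubiquitinase) and Msrb2 (a mitochondrial methionine sulfoxide reductase) had log2 fold changes of 0.04, -0.01 and 0.01. Spag6, a protein of the axoneme, was at 2.91 ± 0.805 CPM in the libraries labelled KO and 2.55 ± 0.295 CPM in those labelled WT (SD, n = 3 each), a log2 fold change of 0.19. Armc3 was at 0, 0 and 0.429 CPM in KO replicates 1, 2 and 3 and at 0.556, 0.429 and 0.346 CPM in WT replicates 1, 2 and 3. Its groups overlapped through KO replicate 3 (log2 fold change -1.63, 95% interval -4.37 to 1.10). The noncoding genes 4930447M23Rik, Carlr and Gm13322 had log2 fold changes of 0.08, -0.03 and 0.40, the coding gene 4930426L09Rik one of 0.21, and the pseudogenes Gm13325 and Gm13363 ones of 0.22 and 0.44. The noncoding 1810010K12Rik had -0.34 and Gm33940 had 0.36. The edgeR adjusted p of the 20 tested genes other than Skida1 and Gm13344 lay between 0.93 and 0.998.

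**Figure D4:**
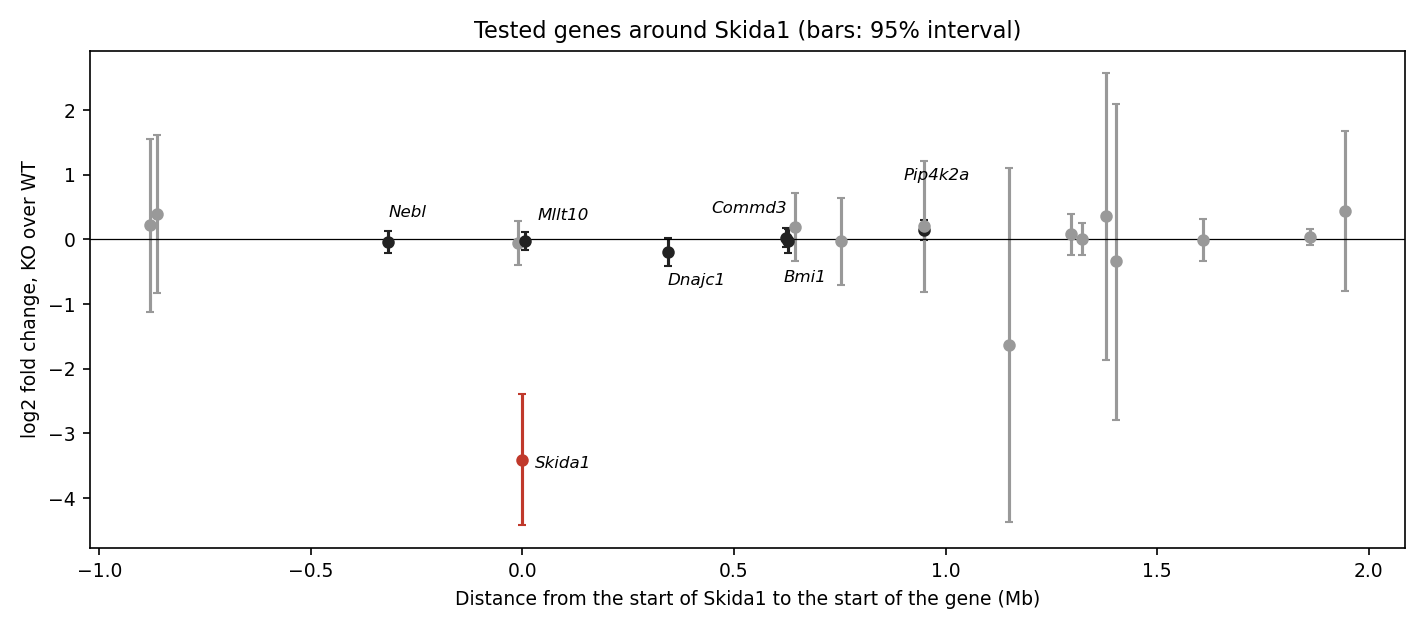
Log2 fold change, KO over WT, of the tested genes at 17 to 20 Mb (vertical axis, with 95% intervals from the edgeR SE) against the distance in Mb from the start of Skida1 to the start of each gene; black points are the named neighbours, grey points the other genes, and Gm13344 is left out because it is at 0 in all KO libraries. Skida1 stands at -3.41, and the intervals of the other genes all include 0.

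**Figure D5:**
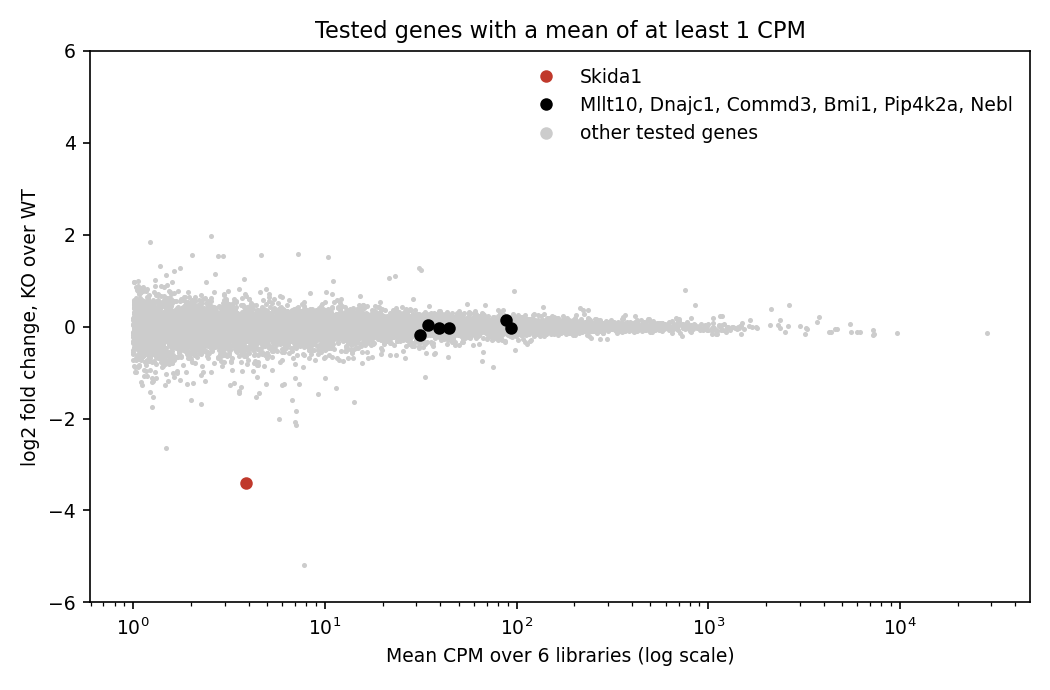
Log2 fold change, KO over WT, against the mean CPM of the 6 libraries (log scale) for 15596 tested genes. Skida1 lies at -3.41 with 1 grey point, Gm10260, below it, and the 6 black neighbours lie between -0.19 and 0.15 inside the cloud.

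Relatives and partners of these genes were read from 8 lists, 69 tested genes in all besides the members. Of the 69, edgeR called 0 over all genes, 4 (5.80%) were at an unadjusted p under 0.05 against 5.26% of all tested genes, with 34 above and 35 below 0 in log2 fold change. The groups did not overlap in 3 of the 69 (4.35%), against 11% of all tested genes. The SKI, SNO and DACH family had 1 of 4 other tested members higher and 3 lower (median -0.11, against -0.001 over all tested genes). The median was 0.051 without KO replicate 1 and from -0.254 to -0.068 without any other single library. Dach1, a transcriptional regulator with the same domain, was at 3.08, 4.35 and 3.62 CPM in KO replicates 1, 2 and 3 and at 5.38, 5.28 and 4.19 CPM in WT replicates 1, 2 and 3. Its groups overlapped, with a log2 fold change of -0.43 (SE 0.183, edgeR adjusted p = 0.93). Ski and Skil, co-repressors of SMAD signalling, had log2 fold changes of -0.09 and 0.02, and Skor1 and Skor2 did not pass the filter.

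Of 20 other genes of Polycomb repressive complex 1, 11 were higher and 9 lower, with a median of 0.01. Ring1, a ubiquitin ligase that pairs with BMI1, was at 25.0, 26.1 and 19.1 CPM in KO replicates 1, 2 and 3 and at 16.5, 18.1 and 19.6 CPM in WT replicates 1, 2 and 3. The groups overlapped through KO replicate 3 (log2 fold change 0.37, edgeR adjusted p = 0.881). Rnf2, a ligase of the same complex, had a log2 fold change of -0.02. The BMI1 paralogue Pcgf2 had one of 0.14, with all KO libraries above all WT ones, as in 5.84% of all tested genes. Phc3, a Polyhomeotic subunit, was at 94.5 CPM in KO replicate 1, against 17.7 and 21.7 CPM in KO replicates 2 and 3 and 19.3, 17.7 and 19.9 CPM in WT replicates 1, 2 and 3, so its log2 fold change of 1.24 (edgeR adjusted p = 0.93) rests on 1 library. Polycomb repressive complex 2 had 6 of 12 higher and 6 lower with a median of 0.004, and its methyltransferases Ezh2 and Ezh1 had log2 fold changes of 0.15 and 0.05. Mtf2 and Rbbp4 of the same complex had 0.11 and -0.07.

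Of the 7 other genes around AF10 and DOT1L, 1 was higher and 6 were lower, with a median of -0.035. Dot1l stood at 95.4 ± 4.78 CPM in the libraries labelled KO and 99.6 ± 9.90 CPM in those labelled WT (SD, n = 3 each), and Aff1 and the AF10 paralogue Mllt6 had log2 fold changes of -0.13 and -0.01. The COMMD proteins and their partners had 9 of 11 higher and 2 lower, with a median of 0.05, among them Commd1 at 0.34 and Ccdc93 at -0.12. The other phosphatidylinositol phosphate kinases had 2 of 6 higher and 4 lower (median -0.004), with Pip4k2b and Pip4k2c at 0.00 and 0.04 and Pip5k1c and Pip5k1a both at -0.06. The nebulin family had 1 of 3 other members higher and 2 lower (median -0.032, or -0.148 to 0.038 as each library was left out). Nrap, a nebulin-related anchoring protein of muscle, was at 8.46, 5.85 and 7.92 CPM in KO replicates 1, 2 and 3 and at 9.66, 8.76 and 10.4 CPM in WT replicates 1, 2 and 3. Its KO libraries were all below the WT ones, as in 5.16% of all tested genes (log2 fold change -0.37, edgeR adjusted p = 0.93). Lasp1 had a log2 fold change of 0.03. The J-domain proteins of the endoplasmic reticulum had 3 of 6 higher and 3 lower (median -0.006), with Dnajb9, Dnajc10 and Sec63 at 0.12, -0.08 and -0.03.

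The genes most like Skida1 over the 6 libraries were found by Pearson's r of log2 CPM (prior count 2) among 13431 named genes averaging 1 CPM or more. Since Skida1 is low in all KO libraries and lowest in KO replicate 1, any gene with that order of libraries ranks high, and r is a description over 6 libraries that share their depth scaling and the group split. The 5 highest were Armc2 (r = 0.995) and Cfap300 (0.989), both of the motile flagellum or cilium, the zinc-finger gene Zfp9 (0.985), the proton pump subunit Atp6v0a1 (0.980) and the adhesion molecule Icam2 (0.979). Their differences were far smaller than that of Skida1. Armc2 was at 7.31, 8.18 and 8.05 CPM in KO replicates 1, 2 and 3 and at 9.79, 9.86 and 9.89 CPM in WT replicates 1, 2 and 3 (log2 fold change -0.33), and Atp6v0a1 had a log2 fold change of -0.05. The 5 lowest were Sdcbp2, Rpl22, Rps15a, Ptma and Trmt12, with r of -0.985 to -0.973. Of the neighbours, Dnajc1 had r = 0.711 and Pip4k2a r = -0.798, while Mllt10 and Bmi1 were at 0.123 and 0.127, Nebl at -0.145 and Commd3 at -0.572.

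Marker sums of other cell types are given beside these values. The 6 meningeal markers summed to 44.2, 40.6 and 50.3 CPM in KO replicates 1, 2 and 3 and to 105, 54.9 and 78.5 CPM in WT replicates 1, 2 and 3. All 6 had a lower mean in KO, and 5 of the 6 had all KO libraries below all WT libraries, as 5.16% of all tested genes did. The sums thus split by group as Skida1 did. Within WT, Skida1 was highest in replicate 2, where the sum was lowest. The 5 choroid plexus markers summed to 23.2, 4.14 and 2.84 CPM in KO replicates 1, 2 and 3 and to 4.34, 9.52 and 49.6 CPM in WT replicates 1, 2 and 3, with Folr1 at 0 in some libraries. The 6 striatal markers, all with a lower mean in KO, summed to 94.3, 91.1 and 87.9 CPM in KO replicates 1, 2 and 3 and to 83.6, 180 and 86.1 CPM in WT replicates 1, 2 and 3, so that WT replicate 2 alone stood high. The 5 endothelial markers, all lower on average, summed to 106 to 144 CPM in KO and 121 to 167 CPM in WT. Of the 6 cortical excitatory markers, 3 had a lower mean in KO and 3 had all KO libraries above all WT ones, as 5.84% of all tested genes did. They summed to 4260 to 4970 CPM in KO and 4530 to 4880 CPM in WT. Of the 5 astrocyte markers, 4 had a lower mean in KO, 1 with all KO libraries below all WT ones. Sums of astrocyte, inhibitory neuron, oligodendrocyte precursor and microglia markers overlapped between the groups. The part of cell content in the Skida1 values was not tested.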

How the data were processed

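The data were 6 bulk RNA-seq libraries of mouse anterior cingulate cortex. The authors deposited whole-number estimated counts per gene, not scaled between libraries, and FPKM per transcript for 537 transcripts they listed as differing. The submitters' processing notes name cutadapt 1.9, HISAT2 2.2.1, StringTie 2.1.6, edgeR and DESeq2. The sources used here do not give the build or the counting step, and 530 listed transcripts found in GENCODE M21 (GRCm38) all had its start, end and strand.

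Estimated counts were used as deposited, in edgeR 4.0.16 (R 4.3.3). Genes kept by filterByExpr (20587) were scaled by TMM factors (0.993 to 1.01) and tested with the quasi-likelihood F-test with no covariate, KO against WT, with Benjamini-Hochberg adjustment over all tested genes and a threshold of 0.05. The SE was derived from the test, as the absolute log2 fold change over the square root of F. Intervals of 95% use this SE and the test's degrees of freedom. DESeq2 1.42.0, limma voom (3.58.1), other scaling and filters, the replicate number as a block and each library left out were alternatives. Matches to other genes came from blastn 2.17.0. Sequences are from GENCODE M21 transcripts. The pipeline was tested on simulated data. The members and lists were chosen with earlier results of these data known. Named were the members, tested genes of the window, preset list genes, the 2 list genes with the smallest p, and the 5 genes most and least like Skida1.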

Additional observations from a re-analysis of the deposited data

How the results depend on the processing

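In 15 alternatives the log2 fold change of Skida1 stayed below 0. It passed the threshold with DESeq2 (-3.41) and without KO replicate 1 (-2.95), and leaving out each library gave -3.80 to -2.95. Since Skida1 was chosen on this contrast, these passes support nothing. DESeq2 was run on the counts as deposited, not on counts divided by 4. The number of genes called was 0 in edgeR (1083 had an unadjusted p under 0.05), 0 in limma voom (1156) and 32 in DESeq2, of which 2 in the window; leaving out each library called 0 to 2 genes, of which 0 to 1 in the window. In the deposited table the log2 ratio of Skida1-202 was -3.99 with a pseudocount of 0.1 FPKM, -7.23 with 0.01 and -1.31 with 1, since a group at 0 sets it. Of the 10 genes most or least like Skida1, 2 were at a Spearman rho of 1 or -1.

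In 15 of 22 genes of the window the log2 fold change changed sign in some alternative, each of them when 1 library was left out. The ranges were -0.041 to 0.012 for Mllt10, -0.006 to 0.062 for Commd3, -0.089 to 0.072 for Bmi1, -0.13 to 0.023 for Nebl, -0.11 to 0.008 for A930004D18Rik, -0.035 to 0.37 for Spag6, -0.18 to 0.21 for Carlr, -0.25 to 0.55 for 4930426L09Rik, -0.033 to 0.13 for 4930447M23Rik, -0.065 to 0.064 for Msrb2, -0.22 to 0.94 for Gm33940, -1.08 to 0.12 for 1810010K12Rik, -0.11 to 0.17 for Otud1, -0.027 to 0.45 for Gm13325 and -0.038 to 0.73 for Gm13322. Without a sign change, Dnajc1 ran from -0.256 to -0.099 and Pip4k2a from 0.089 to 0.182. Etl4 likewise ran from 0.008 to 0.081 and Gm13363 from 0.1 to 0.687. Armc3 also kept its sign, from -7.88 to -1.04, with -7.88 reached without KO replicate 3, the only KO library where it had counts. Of the 8 list medians, that of the COMMD list kept its sign (0.009 to 0.066) and the others turned when some library was left out. limma voom gave -1.25 for Gm33940, 0.66 for 1810010K12Rik and 0.002 for Otud1. The cause was not tested.

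Same-numbered libraries did not deviate together (correlations of -0.042, 0.040 and 0.026), so the labels' replicate numbers were not taken as pairs. With the replicate number as a block edgeR called 0 genes, with 916 under 0.05 before adjustment, and 0 in the window, Skida1 was at -3.55, Gm33940 at -0.29 and Otud1 at 0.006. At 3.2 to 15.2 read pairs in the KO libraries, which Skida1 transcripts remained could not be resolved.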
